A study of Mus musculus with 21 samples.

Results

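Transcripts of 34 genes of homologous recombination and the Fanconi anemia pathway were measured by poly(A) RNA sequencing in B cell precursors carrying an oncogene or an empty vector. The genes were chosen by their symbols, and all 34 were found among the 24421 genes of the count table. All 34 also passed the filter on low counts, which 12786 genes of the table passed. Primary B cell precursors of 53BP1-/- C57BL/6 mice were cultured with interleukin-7 (IL-7), the cytokine that keeps them dividing, and were transduced with the retroviral vector MIGR1. The vector was empty (EV), carried BCR-ABL1p210, the fusion tyrosine kinase found in leukemia, or carried C-MYC, a transcription factor that drives growth and division. Cells were harvested 7 to 9 days after transduction, with 2 libraries for each of the 3 conditions. Every library, EV included, came from mice without 53BP1, so that no library shows these genes in cells that keep it. The study's methods speak of duplicate experiments, and the labels do not say whether the 2 libraries of a condition came from separate animals. The p-values measure the spread between these libraries, part of which may be technical.

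Homologous recombination repairs a broken chromosome by copying the sister chromatid, which confines it largely to cells that have begun to replicate their DNA. The broken end is first trimmed back to single-stranded DNA, BRCA1, PALB2 and BRCA2 then prepare it to invade the sister, and the complexes BCDX2 and CX3 assist the invasion. The Fanconi anemia core complex attaches ubiquitin to FANCI and FANCD2 where a crosslink blocks a replication fork, and nucleases cut the crosslink out so that recombination can finish the repair. The protein 53BP1, missing from all of these cells, normally holds back the trimming of ends.

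The libraries held between 20687092 and 24095955 counts on genes. Levels are given as CPM, counts relative to the TMM-scaled total of the library, and genes were tested with edgeR's quasi-likelihood test over all 12786 genes. A gene was called at a Benjamini-Hochberg adjusted p below 0.05. Myc had 3869 and 3277 counts with EV, 7239 and 8381 with BCR-ABL1, and 37920 and 27450 with C-MYC, highest in the libraries labelled C-MYC. Trp53bp1, the gene of 53BP1, had between 342 and 723 counts in the 6 libraries, and counts per gene do not show which exons were deleted. The 9 B cell precursor markers, such as Cd79a and Vpreb1, summed to between 5150 and 5920 CPM in the EV and BCR-ABL1 libraries and to 3638 and 3055 CPM in the C-MYC libraries. In BCR-ABL1 against EV, 2 of the 9 were called lower, Il7r (log2 fold change -1.82, adjusted p = 0.00091) and Cd79b (-0.58, adjusted p = 0.0457). Dntt was called higher (0.37, adjusted p = 0.0427). Among all genes tested, 12.0% were called lower and 5.08% higher. In C-MYC against EV, 7 of the 9 were called lower and 0 higher, against 24.5% and 18.6% of all genes. The EV libraries also carried transcripts of other cells, which touches each comparison with EV: 10 myeloid markers, such as Lyz2 and S100a8, summed to 1301 and 1182 CPM with EV, against 144 and 163 CPM with BCR-ABL1 and 201 and 351 CPM with C-MYC. All 10 were called lower in both comparisons with EV. The 9 markers of T and natural killer cells summed to 142 and 105 CPM in EV and to between 3.999 and 9.64 CPM in the other libraries, and all 9 were called lower in both. Of 8 erythroid markers, 4 or 5 were at 0 in each library, the globin genes Hba-a1 and Hbb-bt in all 6, and the list summed to at most 1.75 CPM. The part of these other cells in the results below was not tested. Fewer cells of a type and less RNA per cell cannot be told apart in such bulk samples.

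**Figure D1:**
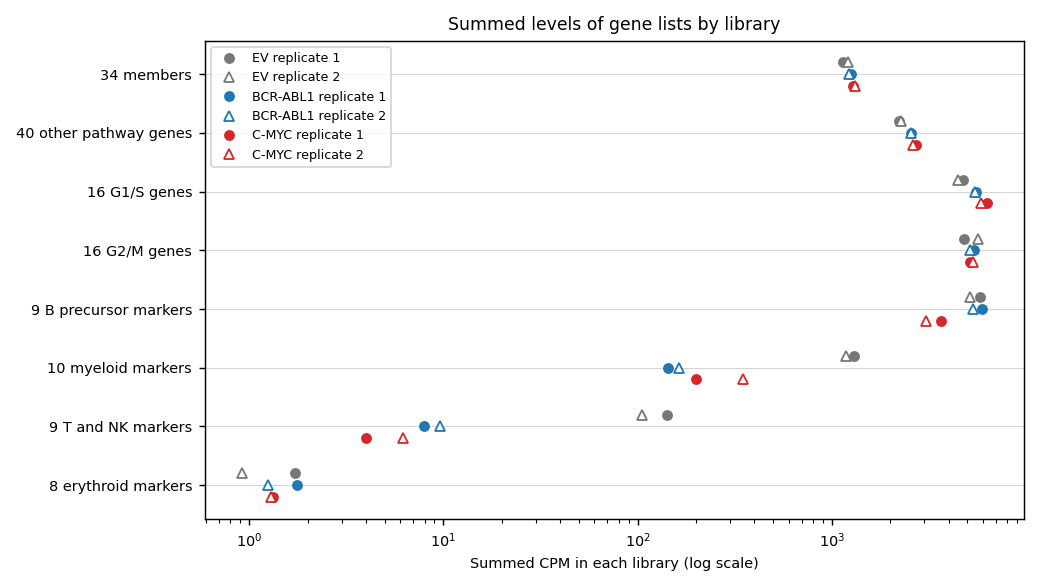
Summed CPM of each gene list (rows) in each of the 6 libraries on a log axis. Gray, blue and red stand for EV, BCR-ABL1 and C-MYC, filled circles for replicate 1 and open triangles for replicate 2. The 34 members stay between 1139 and 1311 CPM, whereas the myeloid and the T and natural killer cell markers stand apart in EV.

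The 34 genes together took a share of all counts of 0.118% and 0.128% (EV), 0.124% and 0.123% (BCR-ABL1), and 0.122% and 0.129% (C-MYC). As summed CPM, this came to 1139 and 1211 (EV), 1251 and 1231 (BCR-ABL1), and 1289 and 1311 (C-MYC). None was near the limit of detection, the lowest count of any member in any library being 70, for Rad51b in BCR-ABL1 replicate 1. Divided by the length of the merged exons, the mean over the 6 libraries was highest for Rad50, at 15.3 CPM per kb, and Nbn, at 14.3 CPM per kb. Both encode parts of the MRN complex, which senses broken ends. Dna2 followed at 13.2, Brca1 at 12.5 and Blm at 9.67 CPM per kb. At the other end, Rad51b had 1.25 and Fancc 1.35 CPM per kb. The deposited FPKM values ranked several of the genes differently, with the crosslink nuclease scaffold Slx4 highest at a mean of 52.5 FPKM against 5.70 CPM per kb. For 14 of the 34 genes the ratio of FPKM to CPM per kb was over 2 times above or below the median ratio, so levels were compared between genes no further. Both scales placed Rad51b last, at 0.523 FPKM.

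**Figure D2:**
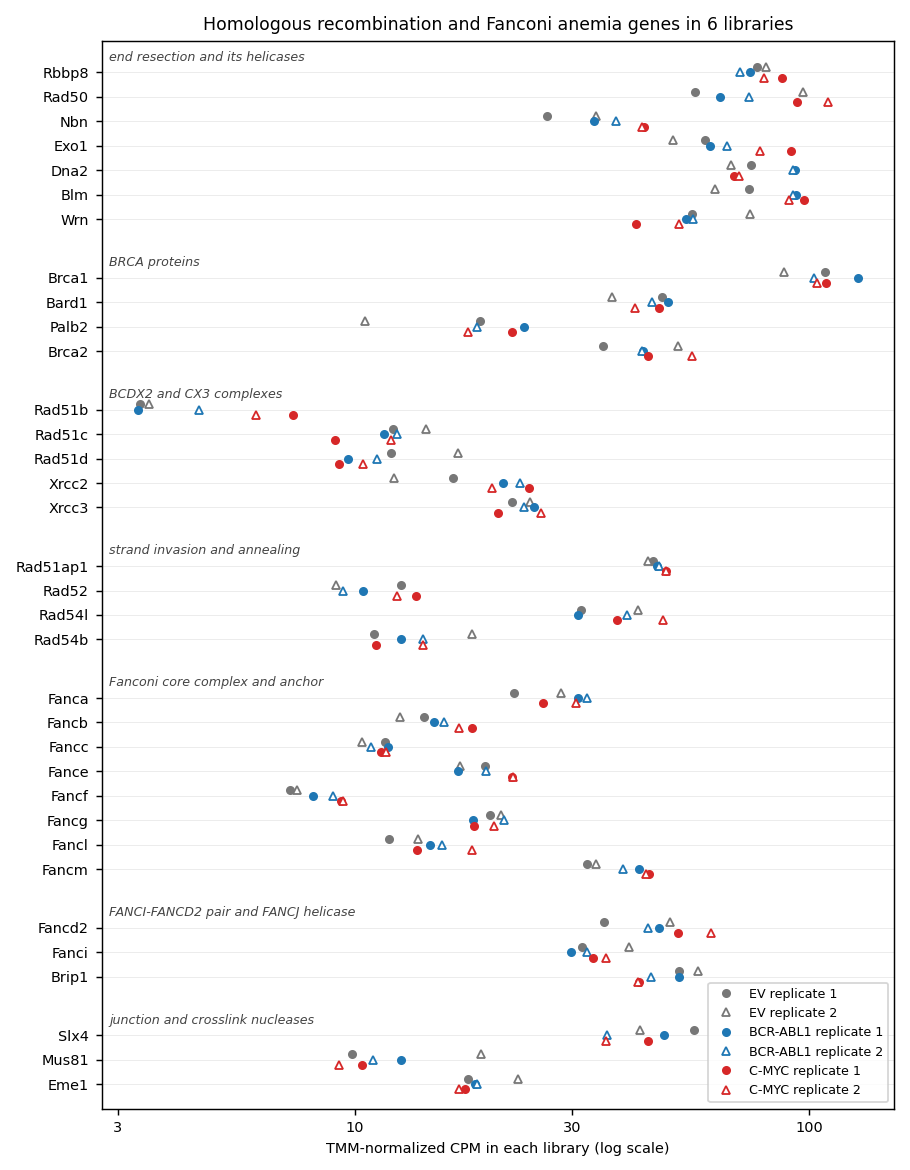
TMM-normalized CPM of each of the 34 genes (rows, ordered by role) in each of the 6 libraries on a log axis. Gray, blue and red stand for EV, BCR-ABL1 and C-MYC, filled circles for replicate 1 and open triangles for replicate 2. In several rows, such as Mus81 and Rad50, the 2 gray points of EV lie farther apart than the points of the other conditions.

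The EV libraries differed from each other more than the libraries of either oncogene did. The absolute log2 ratio of replicate 2 to replicate 1 had a median over the 34 genes of 0.32 (EV), 0.12 (BCR-ABL1) and 0.17 (C-MYC). Over 12570 genes, the medians were 0.27, 0.14 and 0.18. The widest gap was that of the nuclease gene Mus81, whose 2 EV libraries differed by 0.94 on the log2 scale.

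C-MYC against EV asks what the transcription factor did to these genes relative to the vector alone. A total of 6 of the 34 genes rose and 0 fell. The genes that rose were Rad51b, Exo1, Xrcc2, Nbn, Blm and Fancm, each by less than 2-fold. Among all genes tested, 18.6% were called higher and 24.5% lower, so the share of the 34 called higher (17.6%) was near that of all genes, and the share called lower was below it. At an unadjusted p below 0.05, 10 of the 34 passed, against 52.0% of all genes tested. The log2 fold changes had a median of 0.14 and ranged from -0.56 to 0.96, against a median of -0.08 over all genes tested. With library totals in place of TMM scaling, the medians were 0.02 and -0.19, a shift of all genes by over 0.1, and 3 members were called higher (Exo1, Blm and Rad51b) and 3 lower (Wrn, Rad51d and Brip1). For 29 of the 34 genes the 95% interval lay within 2-fold of no change in either direction, which held for 52.2% of all genes tested.

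Among the genes of end trimming, Exo1 encodes a nuclease that digests a broken end over long distances. Exo1 had 58.9 and 50.1 CPM with EV, 60.4 and 66.1 CPM with BCR-ABL1, and 91.4 and 78.1 CPM with C-MYC. Both C-MYC libraries lay above the other 4. The log2 fold change in C-MYC against EV was 0.64 ± 0.14 (SE, n = 2 against 2), a 1.55-fold rise (adjusted p = 0.00857). Blm encodes the Bloom syndrome helicase, which unwinds DNA ends together with the nuclease DNA2 and also dissolves joined strands. Blm had 73.9 and 61.9 CPM (EV), 93.4 and 92.1 CPM (BCR-ABL1), and 97.6 and 90.2 CPM (C-MYC), and the EV libraries lay below the other 4. The rise in C-MYC was 0.47 ± 0.13 on the log2 scale (adjusted p = 0.0193). Nbn encodes NBS1, the MRN subunit that recruits the kinase ATM. Nbn had 26.5 and 33.9 CPM with EV, 33.7 and 37.6 CPM with BCR-ABL1, and 43.2 and 42.8 CPM with C-MYC, and a fold change of 0.51 ± 0.15 (log2) in C-MYC against EV (adjusted p = 0.0305). Its C-MYC libraries lay above all others, and its EV library 2 overlapped the range of BCR-ABL1. Without EV replicate 1, the change in Nbn was 0.35 (adjusted p = 0.0719). Rad50, the partner of NBS1 in the same complex, had 56.05 and 97.02 CPM (EV), 63.7 and 73.6 CPM (BCR-ABL1), and 93.95 and 109.8 CPM (C-MYC). The EV libraries bracketed 3 of the other 4, and the log2 fold change of 0.41 ± 0.24 did not pass the test (adjusted p = 0.199). This value moved with the EV libraries, to 0.07 without EV replicate 1 and to 0.86 without EV replicate 2, where Rad50 was called (adjusted p = 0.00230).

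Of the 5 genes of the complexes BCDX2 and CX3, Rad51b and Xrcc2 rose and 0 fell, where 18.6% of all genes were called higher and 24.5% lower. The log2 fold changes of the 5 ranged from -0.55 to 0.96. BCDX2 holds the products of Rad51b, Rad51c, Rad51d and Xrcc2, and CX3 those of Rad51c and Xrcc3, so that the 2 that rose belong to the same complex as 2 that did not. Rad51b counts were 72 and 84 (EV), 70 and 109 (BCR-ABL1), and 159 and 135 (C-MYC). These came to 3.37 and 3.51 CPM with EV, 3.32 and 4.53 CPM with BCR-ABL1, and 7.31 and 6.06 CPM with C-MYC, and both C-MYC libraries lay above the other 4. The rise was the largest of the 34 genes, 0.96 ± 0.26 on the log2 scale, with a 95% interval of 0.35 to 1.56 (adjusted p = 0.02003). Rad51b is a weakly expressed gene in a long locus (chr12:79297282-79814690, plus strand, GRCm38). In FPKM it was listed at 0.411 and 0.435 (EV), 0.352 and 0.507 (BCR-ABL1), and 0.766 and 0.669 (C-MYC), again with both C-MYC libraries on top. Xrcc2 had 16.4 and 12.2 CPM (EV), 21.2 and 23.1 CPM (BCR-ABL1), and 24.13 and 20.03 CPM (C-MYC). Its EV libraries lay below the other 4, and the log2 fold change in C-MYC was 0.63 ± 0.19 (adjusted p = 0.0319). Without EV replicate 2, that of Xrcc2 was 0.43 (adjusted p = 0.0796). Rad51d, which joins the product of Rad51c to XRCC2 in the complex, had 11.97 and 16.9 CPM with EV, 9.67 and 11.2 CPM with BCR-ABL1, and 9.24 and 10.4 CPM with C-MYC. Both C-MYC libraries lay below both EV libraries, yet the log2 fold change of -0.55 ± 0.22 did not pass the test (adjusted p = 0.0750). Rad51c, shared by both complexes, had 12.1 and 14.3 CPM (EV), 11.6 and 12.4 CPM (BCR-ABL1), and 9.01 and 11.99 CPM (C-MYC). Its C-MYC replicate 1 was the lowest of the 6, and the log2 fold change was -0.33 ± 0.21 (adjusted p = 0.225). Xrcc3 had 22.1 and 24.3 CPM with EV, 24.8 and 23.6 CPM with BCR-ABL1, and 20.6 and 25.7 CPM with C-MYC, with a 95% interval of -0.37 to 0.37 around a log2 fold change of 0.00.

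Of the 8 genes of the Fanconi core complex and its anchor, Fancm rose and 0 fell, and 7 of the 8 had a positive log2 fold change (6 of the 8 with library totals). Over all genes tested, 18.6% were called higher and 24.5% lower, and 45.3% had a positive log2 fold change. The 8 genes were measured in the same libraries and are not replicates of one another. FANCM is the translocase that anchors the core complex to DNA. Fancm had 32.5 and 33.9 CPM (EV), 42.1 and 38.9 CPM (BCR-ABL1), and 44.4 and 43.8 CPM (C-MYC). The C-MYC libraries lay above all others, and the rise was 0.41 ± 0.12 on the log2 scale (adjusted p = 0.0291). Fancb, an X-linked subunit of the complex, had 14.2 and 12.6 CPM with EV, 14.9 and 15.7 CPM with BCR-ABL1, and 18.1 and 16.9 CPM with C-MYC and a log2 fold change of 0.39 ± 0.16 (adjusted p = 0.0838). Its C-MYC libraries also lay above all others. The 4 BRCA genes ranged from 0.06 to 0.44 on the log2 scale, the 4 strand invasion and annealing genes from -0.21 to 0.26, and the 3 junction and crosslink nucleases from -0.56 to -0.24, with 0 called.

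Calls were lost when a library left the model, while every one of the 6 folds stayed positive. The 6 genes were picked by their calls in these same libraries, so the kept sign is not a separate test of direction. Exo1 and Rad51b each stayed called in 5 of the 6 refits that left out 1 library, Blm in 4, Fancm in 2, and Nbn and Xrcc2 in 1. Over these refits the log2 fold change ranged from 0.53 to 0.76 for Exo1, from 0.82 to 1.09 for Rad51b, from 0.35 to 0.60 for Blm and from 0.38 to 0.44 for Fancm. The ranges were wider for Nbn, 0.35 to 0.70, and Xrcc2, 0.43 to 0.86, and their extremes came from the refits without an EV library. Without C-MYC replicate 1, 0 of the 34 were called higher (10.8% of all genes), and without C-MYC replicate 2, 2 were, Exo1 and Rad51b (12.0% of all genes). Other members moved with the EV libraries. Without EV replicate 1, Wrn was at -0.67, Rad51d at -0.78, Brip1 at -0.43, Mus81 at -0.95 and Palb2 at 0.93 on the log2 scale. Without EV replicate 2, these were at -0.24, -0.28, -0.29, -0.01 and 0.08. Rad50, Brca2 and Fancd2 were at 0.07, -0.05 and 0.19 without EV replicate 1 and at 0.86, 0.50 and 0.66 without EV replicate 2. Leaving out BCR-ABL1 replicate 1 or replicate 2 moved the folds little, with Nbn at 0.516 and 0.519, Xrcc2 at 0.634 and 0.635, and Fancm at 0.415 and 0.418. Nbn, Xrcc2 and Fancm nevertheless lost their calls in both of these refits. On FPKM, limma called 1 gene (Exo1) with a pseudocount of 1. The myeloid and T cell transcripts described above also differed in this comparison, and their part in it was not tested.

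**Figure D3:**
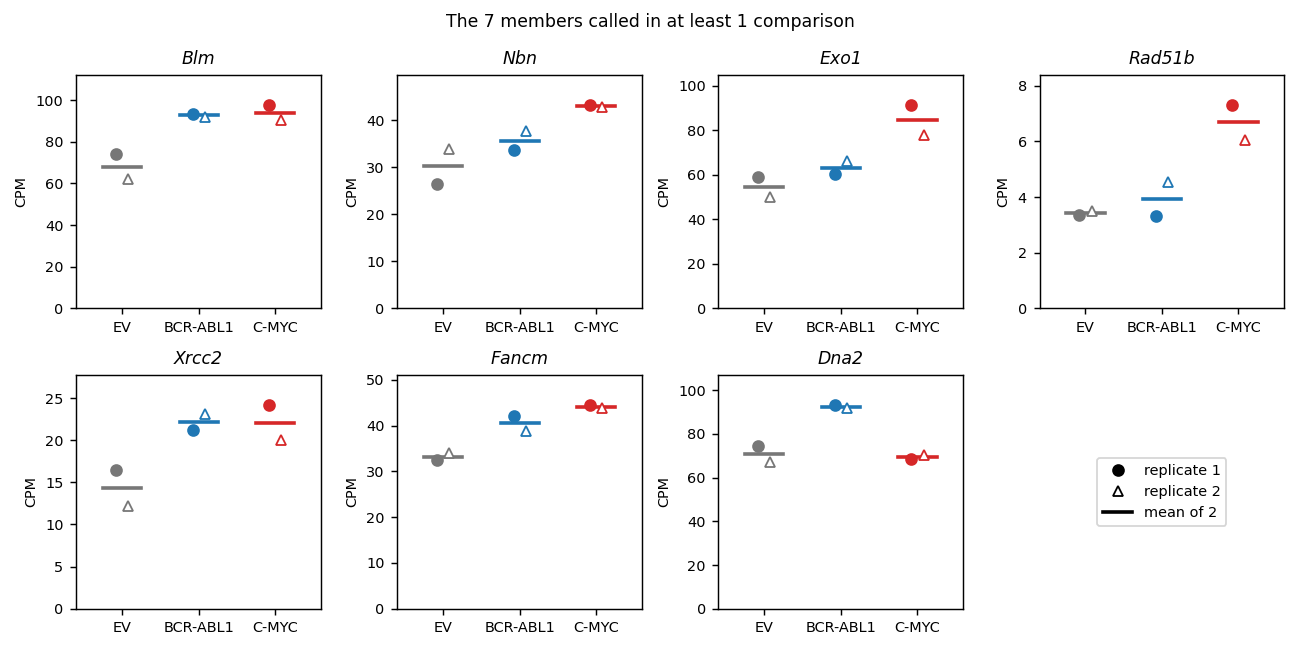
CPM of the 7 genes called in at least 1 comparison, in each library (filled circle, replicate 1; open triangle, replicate 2) with the mean of 2 libraries as a bar, on axes that start at 0. Exo1, Nbn and Rad51b are highest in C-MYC, Blm and Xrcc2 are higher in both oncogene conditions than in EV, and Dna2 is highest in BCR-ABL1.

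The promoters of the 34 genes were searched for letters that factors of the cell cycle and C-MYC are known to bind. Windows from 250 bases before to 50 bases after a transcription start (RefSeq, GRCm38.p6) were at hand for 25 of the 34 genes, 28 windows in all. CACGTG, the E-box that MYC binds with MAX and that reads the same on both strands, was in 2 of the 28 windows (7.14%), those of Slx4 and Eme1, and in 7.15% of all 32851 windows. GCGGGAA or GCGCGAA, letters of sites that E2F factors bind, were searched on both strands. Either was in 11 of the 28 windows (39.3%), which belong to 10 genes, and in 6.00% of all windows. Of the 6 genes that rose in C-MYC, 3 had a window, and 1 of these, Fancm, held these letters. The 4 windows printed below were chosen to show the gene with the largest rise, the called gene with E2F letters, a gene with the same letters that was not called, and a gene with the E-box that was not called. Each is given 5′ to 3′ on the strand of the gene, with matches in capitals. No window of Exo1 or Xrcc2, next in size of rise, was searched here.
Rad51b, chr12:79297032-79297331, plus strand: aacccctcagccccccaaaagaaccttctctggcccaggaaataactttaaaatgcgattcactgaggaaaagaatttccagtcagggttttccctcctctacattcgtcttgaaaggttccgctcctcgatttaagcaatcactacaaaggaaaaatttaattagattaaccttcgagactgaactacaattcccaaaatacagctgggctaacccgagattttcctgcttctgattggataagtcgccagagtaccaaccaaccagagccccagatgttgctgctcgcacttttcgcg
Fancm, chr12:65075353-65075652, plus strand: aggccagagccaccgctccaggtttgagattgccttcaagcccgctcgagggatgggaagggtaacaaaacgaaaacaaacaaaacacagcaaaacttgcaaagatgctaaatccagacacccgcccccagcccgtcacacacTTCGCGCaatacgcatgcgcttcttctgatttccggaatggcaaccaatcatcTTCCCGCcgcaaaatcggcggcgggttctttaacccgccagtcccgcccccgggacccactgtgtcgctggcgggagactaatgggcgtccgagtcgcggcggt
Rad51c, chr11:87404905-87405204, minus strand: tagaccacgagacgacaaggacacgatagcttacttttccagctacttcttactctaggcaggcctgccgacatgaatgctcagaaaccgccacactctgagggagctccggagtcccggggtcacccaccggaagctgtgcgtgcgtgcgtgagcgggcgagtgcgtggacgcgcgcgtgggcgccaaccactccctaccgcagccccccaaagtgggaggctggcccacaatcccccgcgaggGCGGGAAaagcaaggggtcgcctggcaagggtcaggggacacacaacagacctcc
Eme1, chr11:94653694-94653993, minus strand: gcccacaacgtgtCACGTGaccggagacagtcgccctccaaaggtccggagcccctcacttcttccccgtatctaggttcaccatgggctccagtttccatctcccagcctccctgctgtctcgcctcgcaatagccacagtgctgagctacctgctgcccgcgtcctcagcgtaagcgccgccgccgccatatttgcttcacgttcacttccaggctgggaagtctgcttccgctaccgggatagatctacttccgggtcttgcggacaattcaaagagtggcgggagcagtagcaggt
The Rad51b window held no match to any of the 3 motifs, nor did that of a further start of the gene at chr12:79297101-79297400. Fancm held TTCGCGC and TTCCCGC, the reverse complements of the E2F letters, upstream of its start. Rad51c, with GCGGGAA beside its start, had a log2 fold change of -0.33 ± 0.21 in C-MYC against EV, and Eme1, with the E-box, had -0.24 ± 0.17, and both missed the threshold (adjusted p = 0.225 and 0.292). A match describes the letters of a window and not the binding of a factor.

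BCR-ABL1 against EV asks the same question of the kinase. A single gene of the 34 rose, Blm, and 0 fell, where 5.08% of all genes tested were called higher and 12.0% lower. The rise of Blm was 0.45 ± 0.13 on the log2 scale, or 1.37-fold, at an adjusted p of 0.0466, close to the threshold. Blm stayed called in 1 of the 6 refits without 1 library, the refit without EV replicate 1. The 34 log2 fold changes had a median of 0.05, which became -0.02 with library totals, and ranged from -0.47 to 0.63, against a median of 0.00 over all genes tested. For 32 of the 34 genes the 95% interval lay within 2-fold, which held for 66.4% of all genes tested. The other two were Palb2 and Xrcc2. At an unadjusted p below 0.05, 4 of the 34 passed, against 31.2% of all genes tested. The BCDX2 gene Xrcc2 had the largest log2 fold change, 0.63 ± 0.19, which missed the threshold (adjusted p = 0.0622). Dna2, the nuclease and helicase of long-range trimming, had 74.6 and 67.2 CPM (EV), 93.05 and 91.99 CPM (BCR-ABL1), and 68.5 and 70.2 CPM (C-MYC). Its BCR-ABL1 libraries stood above the other 4 at 0.38 ± 0.11 (log2) over EV (adjusted p = 0.0537). Palb2, which bridges BRCA1 and BRCA2, had 18.9 and 10.5 CPM with EV, 23.6 and 18.6 CPM with BCR-ABL1, and 22.2 and 17.7 CPM with C-MYC. Its EV library 2 was the lowest of the 6, and the log2 fold change of 0.52 ± 0.28 did not pass the test (adjusted p = 0.256). Without EV replicate 1, 4 genes were called higher (Dna2, Blm, Palb2 and Xrcc2) and 3 lower (Rad50, Rad51d and Mus81), against 6.88% and 13.7% of all genes. Without any other 1 of the 6 libraries, 0 were called higher and 0 lower.

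C-MYC against BCR-ABL1 compares the oncogenes directly. The contrast does not subtract EV, although the EV libraries entered the filter, the scaling and the shared estimate of spread. Marker lists differed here too: of the 10 myeloid markers 3 were called higher in C-MYC and 0 lower, and of the 9 B cell precursor markers 6 were called lower and 0 higher. Their part in this comparison was not tested. A total of 0 of the 34 genes were called higher in C-MYC by edgeR and 1, Dna2, was called lower, where 11.5% of all genes tested were called higher and 11.9% lower. DESeq2 called Exo1 higher as well, and at an unadjusted p below 0.05, edgeR had 4 of the 34, against 37.4% of all genes tested. Dna2 had a log2 fold change of -0.42 ± 0.11, with an interval of -0.68 to -0.16 (adjusted p = 0.0332). Both of its C-MYC libraries lay within the range of EV, and both of its BCR-ABL1 libraries lay above it. The call on Dna2 was lost without either BCR-ABL1 library or either C-MYC library, and it was kept without either EV library, while its fold stayed between -0.43 and -0.40 on the log2 scale in the 6 refits. The median log2 fold change of the 34 was 0.02, or -0.02 with library totals, against 0.00 over all genes tested, and 32 of 34 intervals lay within 2-fold, as did 59.4% over all genes tested. The widest positive values were those of Rad51b, 0.77 ± 0.26 (adjusted p = 0.0682), Rad50, 0.57 ± 0.24 (adjusted p = 0.125), and Exo1, 0.42 ± 0.14 (adjusted p = 0.0647). These 3 were called in the refits without EV replicate 1 or without EV replicate 2, where EV, with 1 library left, added no spread to the shared estimate, and also with only the 4 libraries compared. The share of all genes called higher was then 17.0%, 17.1% and 18.7%. Blm and Xrcc2, the genes nearest to a shared rise over EV, had log2 differences between the oncogenes whose 95% intervals were -0.27 to 0.31 and -0.45 to 0.44. Both comparisons with EV use the same EV libraries, so the 2 rises of a gene are not independent. EV replicate 2 was the lower for both genes. Without it, Blm was at 0.33 (BCR-ABL1) and 0.35 (C-MYC) over EV, and Xrcc2 at 0.44 and 0.43.

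**Figure D4:**
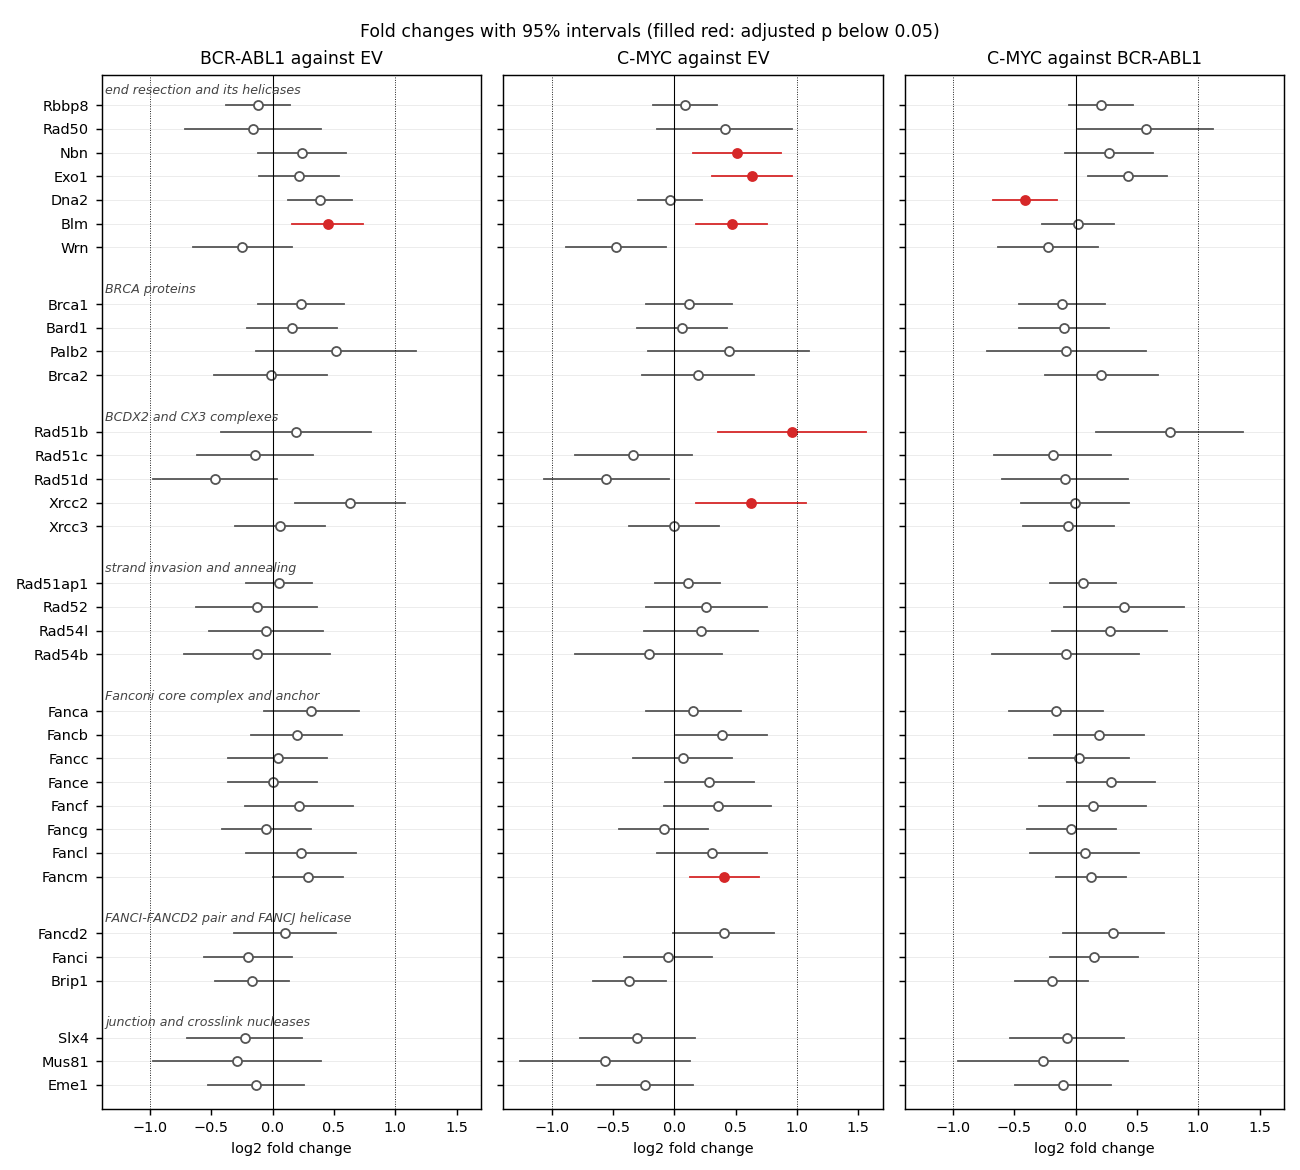
Log2 fold change of each of the 34 genes (rows, by role) in the 3 comparisons, with bars for the 95% interval from edgeR. Filled red points passed an adjusted p below 0.05, and dotted lines mark 2-fold. There are 6 red points in C-MYC against EV, and Blm and Dna2 are the red points of the others.

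The remaining genes of end trimming, Rbbp8 and Wrn, gave 0 calls in the 3 comparisons as reported. In each direction of a comparison, 5.08% to 24.5% of all genes tested were called. Against such shares, 0 calls in a role of few genes does not set it apart, here and in the roles below. Rbbp8 encodes CtIP, which starts the trimming, and had 76.6 and 80.5 CPM (EV), 74 and 70.6 CPM (BCR-ABL1), and 87.2 and 79.5 CPM (C-MYC). In C-MYC against BCR-ABL1 its log2 fold change was 0.21 ± 0.11 (adjusted p = 0.226). Wrn encodes the Werner syndrome helicase and had 55.3 and 74.2 CPM with EV, 53.5 and 55.6 CPM with BCR-ABL1, and 41.5 and 51.7 CPM with C-MYC. Its C-MYC libraries were the lowest of the 6, and the log2 fold change of -0.47 ± 0.18 against EV missed the threshold (adjusted p = 0.0608). In the same comparison, edgeR called Wrn lower with library totals (-0.59, adjusted p = 0.0354) and without the filter on low counts (-0.46, adjusted p = 0.0447). Wrn was at -0.67 without EV replicate 1 and at -0.24 without EV replicate 2.

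The BRCA genes gave 0 calls in the 3 comparisons, where 5.08% to 24.5% of all genes were called per direction. Brca1 encodes a ubiquitin ligase that promotes end trimming and brings in PALB2. It had 108 and 88.03 CPM (EV), 128 and 103 CPM (BCR-ABL1), and 109 and 104 CPM (C-MYC), with overlap of all 3 conditions. Its log2 fold change was 0.23 ± 0.15 in BCR-ABL1 against EV (adjusted p = 0.340). In C-MYC against EV the interval was -0.23 to 0.47. Bard1, the obligate partner of BRCA1, had 47.5 and 36.8 CPM with EV, 49.01 and 45.1 CPM with BCR-ABL1, and 46.6 and 41.3 CPM with C-MYC. Its EV libraries bracketed both C-MYC libraries. Brca2, which acts downstream of PALB2, had 35.2 and 51.5 CPM (EV), 42.99 and 42.8 CPM (BCR-ABL1), and 44.1 and 55.1 CPM (C-MYC). Its 2 EV libraries again bracketed both BCR-ABL1 libraries, and the interval of BCR-ABL1 against EV was -0.48 to 0.44 on the log2 scale. In C-MYC against EV, Brca2 was at -0.05 without EV replicate 1 and at 0.50 without EV replicate 2, where it was called higher (adjusted p = 0.0338). Palb2 in C-MYC had a log2 fold change of 0.44 ± 0.28 (adjusted p = 0.239) and was called higher without EV replicate 1 (0.93).

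The strand invasion and annealing genes also gave 0 calls in the 3 comparisons, against 5.08% to 24.5% of all genes per direction. Rad51ap1, whose product stimulates strand invasion, was the steadiest, with 45.3 and 44.2 CPM with EV, 46.2 and 46.7 CPM with BCR-ABL1, and 48.3 and 48.4 CPM with C-MYC. Its 95% interval in C-MYC against EV was -0.16 to 0.38. Rad52, which anneals single strands, had 12.6 and 9.07 CPM (EV), 10.4 and 9.39 CPM (BCR-ABL1), and 13.6 and 12.4 CPM (C-MYC). Rad54l, a motor that opens the sister duplex, had 31.5 and 41.9 CPM with EV, 31 and 39.7 CPM with BCR-ABL1, and 37.8 and 47.7 CPM with C-MYC, and replicate 2 was above replicate 1 in every condition. Rad54b, its relative, had 11.03 and 18.1 CPM (EV), 12.6 and 14.1 CPM (BCR-ABL1), and 11.1 and 14.1 CPM (C-MYC). Of the exon bases of Rad54b, 35.9% are also annotated to other genes, the nested gene Fsbp among them, so its counts can hold reads of that gene.

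The other genes of the Fanconi core complex gave 0 calls in the 3 comparisons, against 5.08% to 24.5% of all genes per direction. Fanca, the subunit most often mutated in the disease, had 22.4 and 28.5 CPM with EV, 30.9 and 32.4 CPM with BCR-ABL1, and 25.9 and 30.7 CPM with C-MYC. Its EV replicate 1 was the lowest of the 6, and the log2 fold change in BCR-ABL1 against EV was 0.32 ± 0.17 (adjusted p = 0.241). Fancg, whose product binds that of Fanca, had 19.9 and 20.98 CPM (EV), 18.2 and 21.3 CPM (BCR-ABL1), and 18.2 and 20.2 CPM (C-MYC), with overlap of the 3 conditions. FANCC, FANCE and FANCF bind one another within the complex. Fancc had 11.6 and 10.4 CPM with EV, 11.8 and 10.8 CPM with BCR-ABL1, and 11.4 and 11.7 CPM with C-MYC, a range narrower than that of its partners. Fance, whose product also binds FANCD2, had 19.3 and 17.1 CPM (EV), 16.9 and 19.4 CPM (BCR-ABL1), and 22.1 and 22.2 CPM (C-MYC). Its C-MYC libraries lay above the others at 0.29 ± 0.16 (log2) over EV (adjusted p = 0.173). Fancf, a gene of a single exon, had 7.20 and 7.44 CPM with EV, 8.06 and 8.93 CPM with BCR-ABL1, and 9.33 and 9.38 CPM with C-MYC, likewise with the C-MYC libraries on top and a log2 fold change of 0.35 ± 0.19 (adjusted p = 0.167). Fancl encodes the ubiquitin ligase subunit and had 11.9 and 13.8 CPM (EV), 14.7 and 15.5 CPM (BCR-ABL1), and 13.7 and 18.1 CPM (C-MYC). Its log2 fold change in C-MYC against EV was 0.31 ± 0.19 (adjusted p = 0.235).

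The genes of the ubiquitinated pair gave 0 calls in the 3 comparisons with all 6 libraries, against 5.08% to 24.5% of all genes per direction. Fancd2 had 35.4 and 49.3 CPM with EV, 46.8 and 44.1 CPM with BCR-ABL1, and 51.4 and 60.7 CPM with C-MYC, with both C-MYC libraries above the other 4 and a log2 fold change of 0.40 ± 0.18 over EV (adjusted p = 0.102). Without EV replicate 2, Fancd2 was called higher at 0.66 (adjusted p = 0.00713), and without EV replicate 1 it was at 0.19. Fanci had 31.6 and 40.2 CPM (EV), 29.96 and 32.4 CPM (BCR-ABL1), and 33.4 and 35.7 CPM (C-MYC), with the C-MYC libraries between the EV libraries and an interval of -0.41 to 0.30. The difference between the 2 genes was not tested. Of the exon bases of Fanci, 15.95% are shared with Polg on the opposite strand. Brip1, or FANCJ, encodes a helicase that binds BRCA1 and had 51.6 and 56.8 CPM with EV, 51.6 and 44.96 CPM with BCR-ABL1, and 42.2 and 41.9 CPM with C-MYC. Its C-MYC libraries were the lowest of the 6, and its log2 fold change of -0.36 ± 0.13 against EV missed the threshold (adjusted p = 0.0531). It was called lower without EV replicate 1.

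The 3 nuclease genes had lower means in both oncogene conditions than in EV, with 0 called. Of all genes tested, 12.0% (BCR-ABL1) and 24.5% (C-MYC) were called lower than EV. For Mus81 and Eme1 this order rested on EV library 2, and the drop in Slx4 shrank without EV library 1. Slx4, the scaffold that gathers the nucleases, had 55.8 and 42.4 CPM (EV), 47.9 and 35.9 CPM (BCR-ABL1), and 44.1 and 35.6 CPM (C-MYC), and its log2 fold change in C-MYC was -0.30 ± 0.20 (adjusted p = 0.264). Without EV replicate 1, Slx4 was at -0.01 in BCR-ABL1 against EV and at -0.085 in C-MYC against EV. Without EV replicate 2, it was at -0.41 and at -0.48. Replicate 2 of Slx4 lay below replicate 1 in every condition. Each oncogene library lay below the EV library of the same number, although the numbers mark no stated pairs. Mus81, a nuclease that cuts branched DNA, had 9.86 and 18.98 CPM with EV, 12.6 and 10.97 CPM with BCR-ABL1, and 10.3 and 9.21 CPM with C-MYC. Its EV library 2 stood well above the other 5 libraries. The log2 fold change of -0.56 ± 0.30 (adjusted p = 0.163) had an interval of -1.25 to 0.13. It was -0.95 without EV replicate 1 (called lower, adjusted p = 0.00483) and -0.01 without EV replicate 2. In BCR-ABL1 against EV, Mus81 was at -0.68 without EV replicate 1 and at 0.26 without EV replicate 2. Eme1, the partner of MUS81, had 17.7 and 22.8 CPM (EV), 18.4 and 18.6 CPM (BCR-ABL1), and 17.5 and 16.9 CPM (C-MYC), and both C-MYC libraries lay below all others. Its log2 fold change was -0.24 ± 0.17 (adjusted p = 0.292), and -0.04 without EV replicate 2. In BCR-ABL1 against EV, Eme1 was at 0.06 without EV replicate 2.

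**Figure D5:**
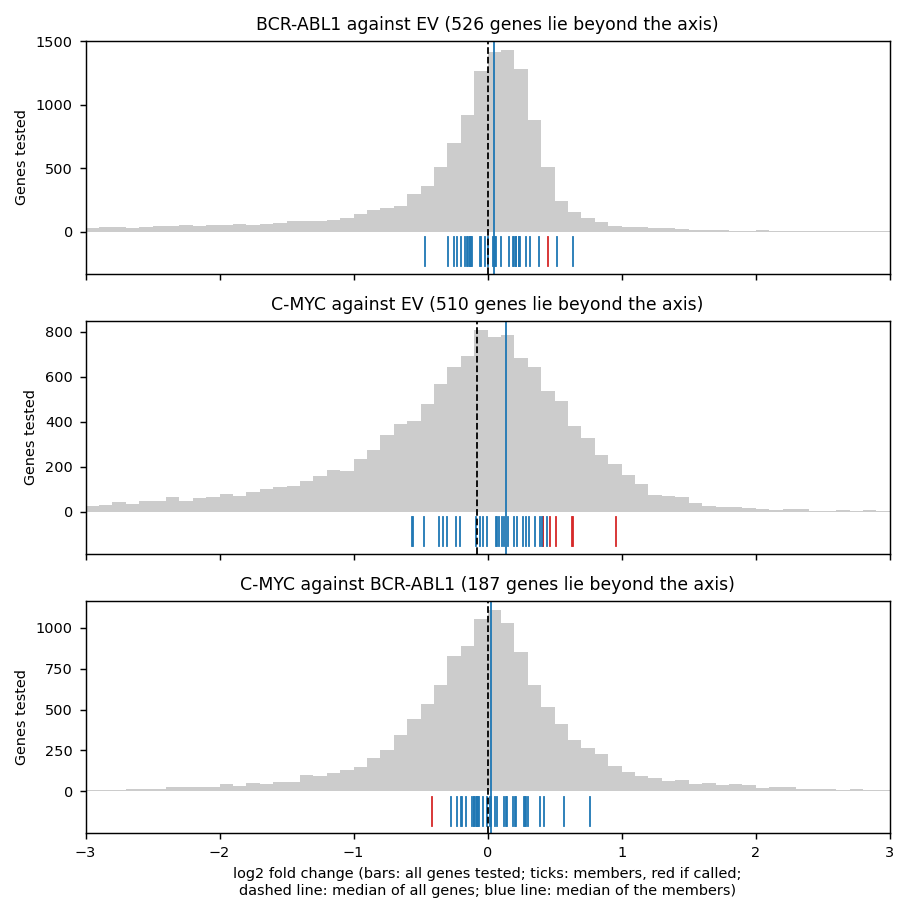
Distribution of log2 fold changes over all 12786 genes tested (gray bars) with the 34 genes as ticks below, red where called, for the 3 comparisons. The dashed line is the median of all genes and the blue line that of the 34. The 34 ticks lie between -0.56 and 0.96 in all 3 comparisons.

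A list of 40 other genes of the same pathways, including RPA, the BRCA1-A complex, the BLM partners and further Fanconi factors, gave 0 calls in either direction in BCR-ABL1 against EV, where 5.08% of all genes were called higher and 12.0% lower. In C-MYC against EV, 11 of the 40 rose (27.5%) and 2 fell (5.00%), against 18.6% and 24.5% of all genes, and the median was 0.17 on the log2 scale. The 2 that fell were Eme2 (-0.78, adjusted p = 0.0228) and Faap20 (-0.95, adjusted p = 0.0129), an alternative partner of MUS81 and a small subunit of the Fanconi core complex. In C-MYC against BCR-ABL1, Faap24, the partner of FANCM, was higher (0.97, adjusted p = 0.00854) and Mcm9, a helicase of the MCM family, was lower (-0.74, adjusted p = 0.0351). Mcm8, of the same family, went the other way there without a call (0.53, adjusted p = 0.0706). In C-MYC against EV, Mcm8 had the largest rise of the list (0.995, adjusted p = 0.00413), and Mcm9 was not called (-0.47, adjusted p = 0.0991). Faap24 had 390 and 351 counts (EV), 354 and 369 (BCR-ABL1), and 752 and 629 (C-MYC), and it also rose against EV (0.93, adjusted p = 0.00467). Mre11a, the nuclease gene of the MRN complex, rose in C-MYC against EV with Nbn (0.66, adjusted p = 0.0194). These genes of the list were picked for mention after their values were seen.

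The recombination genes were set beside 2 lists of cell cycle genes, since many of them are transcribed most in cells that replicate their DNA. Of 16 genes of G1/S, 13 rose in C-MYC against EV, where 18.6% of all genes did, the median of the list being 0.44 on the log2 scale, and 2 rose in BCR-ABL1 against EV, where 5.08% of all genes did, the median being 0.29. Their summed CPM was 4752 and 4466 (EV), 5546 and 5490 (BCR-ABL1), and 6321 and 5870 (C-MYC). Of 16 genes of G2/M, 3 rose in C-MYC against EV (18.8%, near the share of all genes) and 0 in BCR-ABL1 against EV. The part of cell cycle distribution in the changes of the 34 genes was not tested.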

How the data were processed

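Poly(A) RNA was sequenced in 6 libraries (EV, BCR-ABL1 and C-MYC, 2 each). The submitters' processing notes name STAR 2.5.0, StringTie 1.3.0 and GRCm38/mm10. The deposited count table holds whole-number read counts per gene symbol without normalization, and the program and strand setting used for counting are not given in the sources used here. The FPKM values were calculated by the authors with StringTie. The ChIP-seq samples were not analysed here. The 34 members and all lists were chosen with earlier results of these data known.

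edgeR 4.0.16 (R 4.3.3) was run on the deposited counts of all 6 libraries in 1 model without covariates, after filterByExpr (12786 of 24421 genes kept) and TMM scaling. Library totals lay between 20687092 and 24095955 (common biological coefficient of variation 0.151). The quasi-likelihood test was adjusted by Benjamini-Hochberg over all genes tested, and the standard error is the absolute log2 fold change divided by the square root of F. The test was checked on simulated counts, drawn with the same spread of a gene in every condition. In the data the EV libraries differed more from each other than those of either oncogene. The check therefore does not show how the test behaves in comparisons with EV. Full statistics were to be given for up to 5 called members per direction and comparison with the largest change, and genes of the other pathway list were to be named only when called at an absolute log2 fold change of at least 1, which 0 reached. Eme2, Faap20, Faap24, Mcm8, Mcm9, Mre11a, the sixth called member Fancm and the uncalled members given with statistics fall outside this rule. Of the 40 genes of that list, 6 were found under another symbol, 4 of them given as synonyms by RefSeq, and of 10 T and natural killer cell markers 9 were in the table. Positions and merged exon lengths are from GENCODE M21 (GRCm38), 1-based. A planned comparison of protein sequences was not run, and some items are not reported here. Alternatives were DESeq2 1.42.0 (its size factors and its test), library totals, no filter on low counts, the 4 libraries compared, a replicate block, limma 3.58.1 on log2(FPKM + 1) and log2(FPKM + 0.1), and leaving out each library. Figures were drawn with matplotlib.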

Additional observations from a re-analysis of the deposited data

How the results depend on the processing

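Of 102 pairs of a member and a comparison, 56 had a log2 fold change above its standard error. Over the 784 refits of these pairs, 1 changed sign, Bard1 in BCR-ABL1 against EV without EV replicate 2 (-0.012, against 0.36 without EV replicate 1). The pairs were picked by size in these same libraries, so this count does not show that directions are stable. It leaves out the 46 pairs at or below 1 standard error, where signs did change with 1 library. In BCR-ABL1 against EV, Rad50 was at -0.49 without EV replicate 1 and at 0.30 without EV replicate 2. Members called higher in BCR-ABL1 against EV (1 as reported) numbered 2 with DESeq2 size factors (5.78% of all genes) and without the filter on low counts (4.56%), 3 with the DESeq2 test (7.25%), 4 with the replicate block (9.55%), and 0 with library totals, with the 4 libraries compared and with limma on FPKM at either pseudocount (2.66% to 3.19%). Leaving out 1 library gave 0 to 4 higher and 0 to 3 lower. In C-MYC against EV (6 higher and 0 lower as reported), library totals gave 3 higher and 3 lower (14.0% and 29.6% of all genes), limma gave 1 higher on log2(FPKM + 1) (13.2%), and 2 higher and 1 lower on log2(FPKM + 0.1) (13.4% and 27.4%), the absence of a filter gave 1 lower (19.5%), and the replicate block gave 9 higher and 3 lower (22.8% and 29.0%). Leaving out 1 library gave 0 to 8 higher and 0 to 4 lower. In C-MYC against BCR-ABL1 (0 higher and 1 lower as reported), 1 was higher with the DESeq2 test (14.0%) and without the filter (9.84%), and 3 were higher with the 4 libraries compared (18.7%) and with the replicate block (16.5%). Leaving out 1 library gave 0 to 3 higher and 0 to 1 lower. Beside the calls reported, the replicate block called Dna2, Palb2 and Xrcc2 higher in BCR-ABL1 against EV, Rad50, Palb2 and Fancd2 higher and Wrn, Rad51d and Brip1 lower in C-MYC against EV, and Rad50, Exo1 and Rad51b higher in C-MYC against BCR-ABL1. The cause of these shifts was not tested. The replicate numbers of the labels mark no stated shared animal or day. The deviations of same-numbered libraries correlated across 12570 genes at 0.25, 0.23 and 0.18, and with 2 numbers this does not show that they are pairs. The median log2 fold change of the members stayed positive in C-MYC against EV (0.02 to 0.19) and lay on both sides of 0 in the other comparisons (-0.04 to 0.12 and -0.05 to 0.07).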
